A study of Mus musculus with 12 samples.

Results

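Rab GTPases are small membrane-bound switches that give each vesicle and organelle its address, and their messages were followed across 4 dendritic cell (DC) populations of the inflamed mouse lung. With earlier results of these data known, members were chosen by a name pattern. Their gene symbols are made of Rab, a number and optional letters or digits, on probe sets with a single symbol. The probe set with the highest mean over 12 arrays stood for its gene. The pattern took 72 of 18193 genes. Of these, 59 encode Rab GTPases, on 132 probe sets with 38 genes having several, and the other 13 encode exchange factors, activating proteins, effectors, a further Rab-named protein or antisense RNAs and were counted apart. All 59 symbols were found in RefSeq's mouse gene table.

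The arrays measured RNA of lung DC sorted by flow cytometry, at a purity above 93% by the labels, from male C57BL/6J mice aged 8 to 12 weeks. All mice had received 100 ng of lipopolysaccharide, a bacterial cell wall component, with 100 ug of the foreign protein ovalbumin in 50 ul of saline into the airway, 16 h before the lungs were taken. Untreated mice were not analysed here, so every value describes the inflamed lung and none describes a response to the treatment. The groups, with 3 arrays each, were 2 of conventional DC (cDC), one sorted as CD103+ and one as CD11bhi CD14lo, and 2 of monocyte-derived DC (moDC), one sorted as CD11bhi CD14hi and one, the inflammatory kind, as CD11bhi Ly6Chi. They are named by lineage and marker below: CD103+ cDC, CD14lo cDC, Ly6Chi moDC and CD14hi moDC. Each replicate pooled 20 mice, and the sources used here do not say whether replicates of 1 number in different populations share mice. The number of arrays limits the precision. In such bulk samples, fewer cells that carry a message and less of it per cell cannot be told apart.

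A Rab cycles between a GDP-bound form held in the cytosol and a GTP-bound form that sits on a membrane through lipid tails added by Rab geranylgeranyl transferase. Guanine nucleotide exchange factors load GTP, GTPase-activating proteins stimulate its hydrolysis, and effectors such as tethers and motors bind the GTP form. In DC, Rabs mark the phagosomes, recycling endosomes, Golgi and lysosomes through which captured antigen, major histocompatibility complex (MHC) molecules and Toll-like receptors (TLR) travel, and several are known for roles in the presentation of captured antigen on MHC class I, called cross-presentation.

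Signals are MAS5 intensities in arbitrary units. A difference is given as a log2 difference ± SE on the log2(signal + 50) scale, where the added 50 understates any fold that involves a dim signal, so folds are printed only where both means lie above the line given below. Calls in limma needed an adjusted p under 0.05, by Benjamini-Hochberg over all 18193 genes. Array medians ran from 72.4 to 109, and the mean of these medians, 92.2, served as the line between brighter and dim genes. All 5 DC markers examined (Itgax, H2-Ab1, Cd74, Flt3 and Zbtb46) had mean signals above this line in all 4 populations, whereas the NK and T cell markers lay below it. Flt3 means fell from 6749 in CD103+ cDC over 2513 in CD14lo cDC and 753 in CD14hi moDC to 113 in Ly6Chi moDC. Zbtb46 fell likewise, from 4535 over 3001 and 1424 to 189. Sums of 4 monocyte and macrophage markers, mostly Csf1r, were 1345 to 1954 in CD103+ cDC and 15254 to 16264 in CD14lo cDC. They were 24636 to 30129 in CD14hi moDC and 26714 to 30264 in Ly6Chi moDC. All 4 alveolar macrophage markers on the arrays were above the line in every population, with sums of 1066 to 4490.1 in CD103+ cDC, 1172 to 7470 in CD14lo cDC, 1555 to 4096 in CD14hi moDC and 6192 to 8023 in Ly6Chi moDC, and of 3 B cell markers 1 or 2 were above it. The sum in Ly6Chi moDC rested on Chil3 (mean 6685). Marco, Siglecf and Car4 had their lowest means in that population (98.0, 274 and 317). Of 4 fibroblast markers 3 or 4 were above the line in each population, and of 4 endothelial markers 1 to 3. Of the sort markers, Itgae (CD103) was at 12449 to 17620 on CD103+ cDC arrays and at most 1126 elsewhere, and Itgam (CD11b) was at most 72.1 on CD103+ cDC arrays and at least 859 elsewhere. Cd14 was at least 9073 on all 6 moDC arrays, Ly6Chi moDC included, and at most 1714 on the cDC arrays. The Gapdh 3' to 5' signal ratio, a measure of RNA quality, was 3.26 and 3.27 on CD103+ cDC arrays 1 and 3 against 1.68 on array 2 and 1.48 to 2.29 on all other arrays. The same ratio for actin was 1.12, 0.97 and 1.03 on CD103+ cDC arrays 1, 2 and 3 and 0.99 to 1.05 on the other populations' arrays. The summed signal of 5 lung epithelial markers was 4369 to 8423 on CD103+ cDC arrays and at most 4092 on the others. The sum of 4 neutrophil markers was 3867 to 4197 on Ly6Chi moDC arrays and at most 2125 on the others. The part of these differences in the results below was not tested.

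Promoter sequence is shown for 4 genes whose messages parted the populations and whose promoters hold a searched motif. RefSeq promoter windows on GRCm38.p6, 250 bases before to 50 after a start site, were found for 48 of the 59 genes. Motifs were searched on both strands, none contains another, and capitals mark a match. The first pair was higher in CD103+ cDC than in every other population and has a composite motif of ETS and interferon regulatory factors (GGAANNGAA or its reverse complement), which 8.24% of all 32851 promoters hold. Rab21 (chr10:115315542-115315841, minus strand) also has an E-box of the TFEB type (CACGTG, 7.15% of all promoters), and the Rab43 window (chr6:87809708-87810007, minus strand) is 1 of 4 for that gene.
Rab21: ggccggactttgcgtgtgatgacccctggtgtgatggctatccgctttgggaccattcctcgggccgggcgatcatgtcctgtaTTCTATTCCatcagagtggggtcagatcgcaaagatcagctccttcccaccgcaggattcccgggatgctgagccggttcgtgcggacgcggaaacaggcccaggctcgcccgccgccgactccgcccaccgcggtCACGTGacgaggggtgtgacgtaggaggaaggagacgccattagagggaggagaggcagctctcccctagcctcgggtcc
Rab43: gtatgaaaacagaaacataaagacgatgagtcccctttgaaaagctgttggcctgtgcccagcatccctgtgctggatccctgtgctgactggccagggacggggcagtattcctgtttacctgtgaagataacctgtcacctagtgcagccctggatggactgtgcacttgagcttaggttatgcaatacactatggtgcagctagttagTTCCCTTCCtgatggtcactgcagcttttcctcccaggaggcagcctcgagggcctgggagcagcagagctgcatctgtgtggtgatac
Rab20 (chr8:11478591-11478890, minus strand), which was higher in both moDC populations, has a pair of interferon regulatory factor core sites (GAAANNGAA, 8.56% of all promoters) and the same E-box. Rab32 (chr10:10558158-10558457, minus strand), lowest in CD14lo cDC and CD14hi moDC, has an ETS site of the PU.1 type (GAGGAAGT, 3.2% of all promoters).
Rab20: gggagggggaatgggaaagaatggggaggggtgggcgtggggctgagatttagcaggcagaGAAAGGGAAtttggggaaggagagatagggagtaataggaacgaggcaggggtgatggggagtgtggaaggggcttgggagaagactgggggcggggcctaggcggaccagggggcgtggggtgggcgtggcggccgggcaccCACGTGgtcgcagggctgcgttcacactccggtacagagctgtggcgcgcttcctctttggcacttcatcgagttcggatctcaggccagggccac
Rab32: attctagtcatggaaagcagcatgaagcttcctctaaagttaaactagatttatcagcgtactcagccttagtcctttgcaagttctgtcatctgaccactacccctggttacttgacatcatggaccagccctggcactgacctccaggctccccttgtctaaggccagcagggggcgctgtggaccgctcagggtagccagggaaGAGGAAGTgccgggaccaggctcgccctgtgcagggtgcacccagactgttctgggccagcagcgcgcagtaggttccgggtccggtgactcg
A match is a run of letters and not a binding site shown by these data.

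The members did not share 1 motif. Of 48 member genes with a promoter, 6 held the composite motif (Rab11b, Rab12, Rab13, Rab21, Rab43 and Rab6a) and 6 the E-box (Rab20, Rab21, Rab23, Rab24, Rab27a and Rab5a). A gene counted here if any of its windows matched, whereas the shares of all promoters count single windows, so the 2 are not in the same unit. The interferon regulatory factor pair was in 3 (Rab19, Rab20 and Rab40b), AP-1 (TGANTCA, 7.81% of all promoters) in 3, the PU.1 type site in 2, the cyclic AMP response element (TGACGTCA, 1.79%) in 2 and NF-kappaB (GGGANTTTC, 1.11%) in 0. Of 8 genes higher in CD103+ cDC with a promoter in the table, 2 held the composite motif and 1 the E-box. Over 60 member windows the median GC content was 61.2% and the median number of CpG dinucleotides 19.5, against 52.7% and 7 over all windows.

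Rab messages split the populations, and CD103+ cDC stood furthest apart, as they did over all genes. Each pair with CD103+ cDC had more calls over all genes, in each direction, than any pair without it. In CD103+ cDC 5.46% of all genes were higher and 5.18% lower than in each other population. Of the 59 Rab GTPases, 28 (47.5%) were called by the moderated F test over the 4 populations, against 30.8% of all genes. Most members are brighter than the array median, and among brighter genes the shares were closer: 23 of 44 members (52.3%) against 46.5%. Of the 28, 15 had their highest mean in CD103+ cDC, 5 in Ly6Chi moDC, 4 in CD14lo cDC and 4 in CD14hi moDC. The lowest mean was in Ly6Chi moDC for 13, in CD103+ cDC for 8, in CD14lo cDC for 5 and in CD14hi moDC for 2. The highest and lowest means differed by at least 2-fold for 15. These counts by highest population, lowest population and 2-fold range were not made over all genes, so they are not shown to be particular to Rabs. The median range of the 4 means was 0.58 on the log2 scale over all 59 members and 0.44 over all genes, but 0.61 over both the brighter members and all brighter genes. Some genes pass this line only through the population in which they are high.

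**Figure D1:**
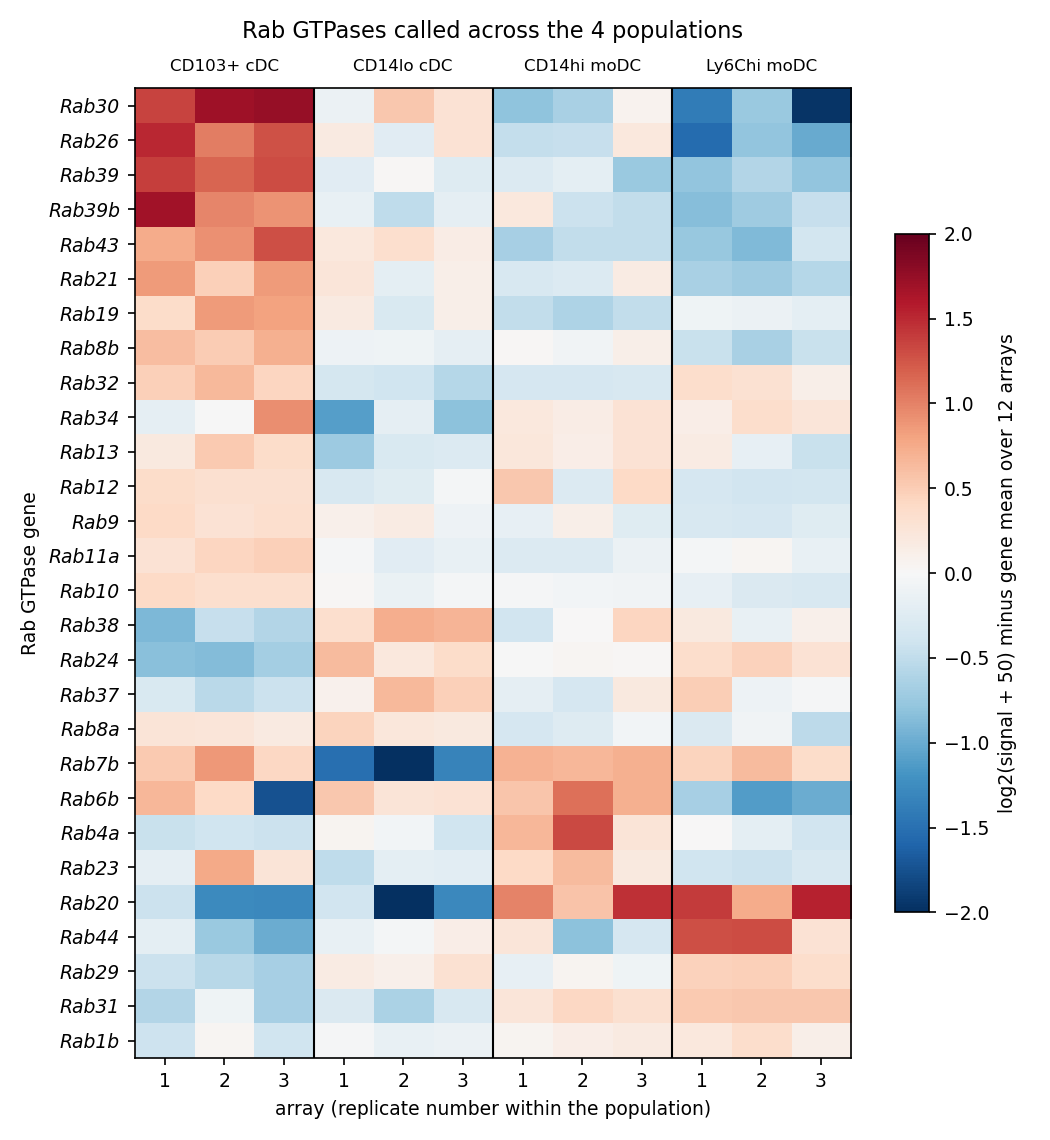
Heat map of the 28 Rab GTPases called by the F test: rows are genes, columns the 12 arrays by population, and colour is log2(signal + 50) minus the gene's mean over the arrays. The upper rows are genes with their highest mean in CD103+ cDC, of which Rab30 had the widest range (2.96), and Rab7b is the row with 3 low CD14lo cDC arrays.

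More members were called higher than lower in CD103+ cDC in each of its 3 comparisons. Against CD14lo cDC, 14 members were higher and 4 lower in CD103+ cDC (23.7% and 6.78%), where 7.8% and 8.4% of all genes were. Against CD14hi moDC, 14 were higher and 6 lower (10.2% and 12.3% of all genes), and against Ly6Chi moDC 14 were higher and 10 lower (14.5% and 14.2% of all genes). The same CD103+ cDC arrays enter all 3 comparisons. The median log2 difference of the members was 0.12, 0.03 and 0.04 in that order, against 0.00, -0.01 and 0.02 over all genes.

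The mean of both cDC was higher than that of both moDC for 12 members and lower for 10 (12.1% and 12.3% of all genes), or 20.3% and 16.9% of members. Among brighter genes the shares were 27.3% higher and 18.2% lower for members and 18.8% and 18.9% for all. Among the populations other than CD103+ cDC the counts were small. CD14hi moDC against CD14lo cDC had 4 higher and 2 lower, 6.78% and 3.39% of members (5.49% and 3.64% of all genes). Ly6Chi moDC against CD14hi moDC had 3 higher and 3 lower, 5.08% each (3.51% and 6.54% of all genes), and Ly6Chi moDC against CD14lo cDC had 6 and 6, 10.2% each (6.07% and 7.72% of all genes). Centring each array at its median took the median log2 difference of all genes from -0.02 to 0.20 in the former and from -0.01 to 0.11 in the latter, and the splits became 10 and 2, and 9 and 5. For CD103+ cDC against CD14hi moDC it went from -0.01 to 0.11, with 15 higher and 4 lower, and against Ly6Chi moDC from 0.02 to -0.09, with 12 and 11.

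**Figure D2:**
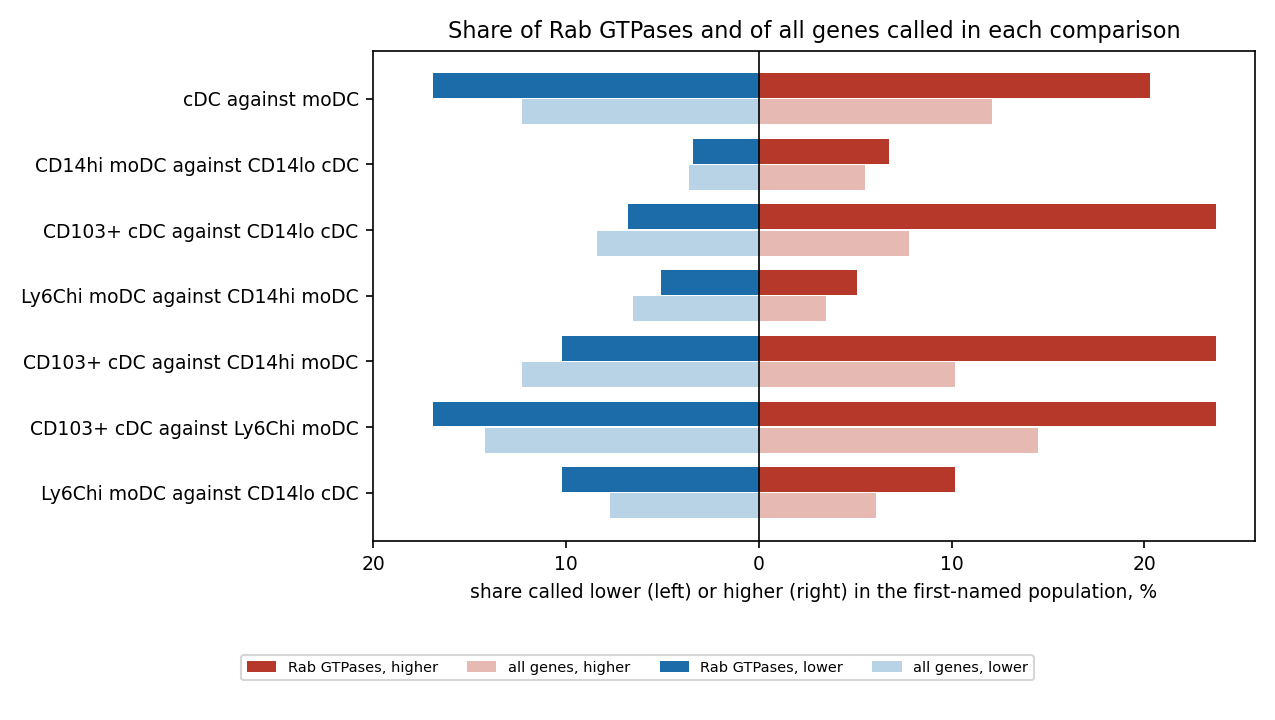
Bars give the share of Rab GTPases (dark, of 59) and of all genes (light, of 18193) called lower (left) or higher (right) in the first-named population of each comparison, in percent. The dark bars on the right reach 23.7% in the 3 CD103+ cDC comparisons, where the light bars are at 7.8% to 14.5%.

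In CD103+ cDC, 10 members (16.9%) were higher than in each of the 3 other populations, against 5.46% of all genes: Rab21, Rab8b, Rab10, Rab11a, Rab39, Rab39b, Rab19, Rab30, Rab43 and Rab26. Of the 10, Rab39b had a mean below the line at 92.2 in all 3 other populations, Rab39 in 2, and Rab30, Rab26 and Rab19 in 1 each. Lower than in each other population were 3 (Rab24, Rab29 and Rab38; 5.08% of members, 5.18% of all genes). Elsewhere single members stood apart: Rab7b was lower in CD14lo cDC (0.33% of all genes), Rab4a higher in CD14hi moDC (1.19%) and Rab8b lower in Ly6Chi moDC (3.37%). Without CD103+ cDC arrays 1 and 3, which had the high Gapdh ratio, the 10 fell to 3 called (Rab11a, Rab39 and Rab39b), with a lone CD103+ cDC array assumed to vary like the others. With array 2 alone the differences of the 10 genes were 0.39 to 3.06. Their sign could not change, because array 2 lay above every array of the other populations for each gene. The differences of Rab11a, Rab19 and Rab30 became larger. Those of all the other genes became smaller, with the largest shift at -0.25 for Rab26. Without both arrays the higher calls also fell from 14 to 7 against CD14lo cDC and from 14 to 8 against CD14hi moDC.

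The members are described by the compartment they serve. The called counts of these small groups stand beside 30.8% of all genes and 46.5% of brighter genes called by the same test, and no group was tested against the others.

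Early endosomes and phagosomes. Of 8 Rabs that act there, 3 were called by the F test: Rab21 was highest in CD103+ cDC, and Rab20 and Rab31 were highest in the moDC. Rab21 directs early endosomes and the traffic of integrins. Its signals were 11491, 8849.9 and 11437 in CD103+ cDC, 7513, 5517 and 6874 in CD14lo cDC, 4042, 3846 and 4241 in Ly6Chi moDC and 5061, 5255 and 7122 in CD14hi moDC. Every CD103+ cDC array lay above all other arrays, and the Ly6Chi moDC arrays were the lowest. The difference was 0.67 ± 0.16, adjusted p = 0.0064 against CD14lo cDC, 0.87 ± 0.16 against CD14hi moDC and 1.37 ± 0.16 against Ly6Chi moDC.

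Rab20 acts in phagosome maturation and is known as an inflammation-responsive Rab of macrophages. Its signals were 703, 369 and 364 in CD103+ cDC, 730.0, 196 and 367 in CD14lo cDC, 2636, 1656 and 2913 in Ly6Chi moDC and 1979, 1459 and 2764 in CD14hi moDC. All 6 moDC arrays lay above all 6 cDC arrays, with wide spread within each population. Array 1 was the highest of each cDC population, and the alveolar macrophage markers Chil3 (2407 and 3941) and Car4 (1013 and 2315) were also highest on array 1 of CD103+ cDC and CD14lo cDC, whose part was not tested. The cDC mean was lower by 4.73-fold (-2.24 ± 0.25, adjusted p = 3.1e-06), the largest fall of any member in this comparison, and the 2 moDC populations differed by 0.22 ± 0.35 (adjusted p = 0.81). CD14hi moDC exceeded CD14lo cDC by 2.25 ± 0.35, adjusted p = 0.00045, although both carry high CD11b.

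Rab31, a close relative of Rab22a, moves cargo between the trans-Golgi network and endosomes. It read 1431, 2032 and 1352 in CD103+ cDC, 1762, 1380.1 and 1729 in CD14lo cDC, 3123, 3147 and 3155 in Ly6Chi moDC and 2562, 2884 and 2705 in CD14hi moDC. All moDC arrays again lay above all cDC arrays, and the Ly6Chi moDC arrays were nearly equal to each other. The cDC mean was lower (-0.85 ± 0.11, adjusted p = 1.1e-05), and Ly6Chi moDC against CD14hi moDC gave 0.21 ± 0.15 (adjusted p = 0.49).

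The other 5 early endosome members were not called by the F test. Rab5a, which drives fusion of early endosomes, read 2199, 1863 and 2384 in CD103+ cDC, 1401, 2268 and 1663 in CD14lo cDC, 1751, 1614 and 1887 in Ly6Chi moDC and 1575, 1514 and 1415 in CD14hi moDC. Its pair with CD14hi moDC was called (0.50 ± 0.16, adjusted p = 0.032), a call lost without any 1 of 5 arrays: CD103+ cDC array 1 or 3, or any CD14hi moDC array (0.42 to 0.53, adjusted p = 0.057 to 0.12). Rab22a, which brings recycling endosomes with MHC class I to phagosomes, read 1861, 1615 and 1818 in CD103+ cDC, 1529, 1253 and 1476 in CD14lo cDC, 1351, 1255 and 1297 in Ly6Chi moDC and 1427, 1402 and 1519.8 in CD14hi moDC. CD103+ cDC exceeded Ly6Chi moDC (0.42 ± 0.12, adjusted p = 0.015), a call lost after median centring (0.32, adjusted p = 0.13) and on all 3 other probe sets, at 0.42, 0.38 and 0.41 (adjusted p = 0.097, 0.19 and 0.11). Rab5b and Rab5c, the other Rab5 forms, had ranges of 0.26 and 0.39, and Rab17, an epithelial Rab, was dim on every array.

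Recycling endosomes and the plasma membrane. Of 12 Rabs, 6 were called, 4 of them highest in CD103+ cDC. Rab8b, which carries vesicles to the cell surface, read 11506, 10654 and 12235 in CD103+ cDC, 6969.6, 7079 and 6585 in CD14lo cDC, 5514, 4739 and 5515 in Ly6Chi moDC and 7638, 7168 and 8118 in CD14hi moDC. The lowest CD103+ cDC array (10654) lay above the highest other array (8118), and Ly6Chi moDC arrays were the lowest. The CD103+ cDC differences were 0.73 ± 0.11, 0.58 ± 0.11 and 1.12 ± 0.11 against CD14lo cDC, CD14hi moDC and Ly6Chi moDC (largest adjusted p = 0.0012). The gene's other probe set gave -0.093, 0.02 and 0.22 with none called, so the Rab8b pattern rests on 1 of its 2 probe sets. The Ly6Chi moDC falls against CD14hi moDC (-0.54 ± 0.11, adjusted p = 0.0051) and CD14lo cDC (-0.39 ± 0.11, adjusted p = 0.031) were lost after median centring (-0.31 and -0.27, adjusted p = 0.15 and 0.27). The latter call was also lost without any single array of either population (-0.32 to -0.42, adjusted p = 0.050 to 0.14).

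Its paralogue Rab8a, which also serves TLR signalling in macrophages, followed the lineage instead. Rab8a read 2794, 2757 and 2637 in CD103+ cDC, 3173, 2715 and 2652 in CD14lo cDC, 1884, 2199 and 1594 in Ly6Chi moDC and 1825, 1922 and 2225 in CD14hi moDC. All cDC arrays lay above all moDC arrays (0.52 ± 0.10, adjusted p = 0.00059), a call kept without any 1 of the 12 arrays and on 1 of the gene's 2 other probe sets but not on the other (0.09, adjusted p = 0.45), and the 2 cDC populations differed by -0.06 ± 0.14 (adjusted p = 0.86).

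Rab11a, the Rab of the slow recycling endosome that also delivers TLR4 to phagosomes, read 3943, 4347 and 4468 in CD103+ cDC, 3155, 2734 and 2868 in CD14lo cDC, 3113, 3299.6 and 2884 in Ly6Chi moDC and 2644, 2638 and 2950.0 in CD14hi moDC. Each CD103+ cDC array exceeded each other array, by 0.54 ± 0.11 against CD14lo cDC (adjusted p = 0.0035), 0.62 ± 0.11 against CD14hi moDC and 0.45 ± 0.11 against Ly6Chi moDC. The last call was lost after median centring (0.34, adjusted p = 0.056). Rab10, which carries TLR4 and other receptors to the surface, read 8762, 8478 and 8471 in CD103+ cDC, 6779.5, 6086 and 6481 in CD14lo cDC, 5966, 5438 and 5314 in Ly6Chi moDC and 6596, 6389.9 and 6349.6 in CD14hi moDC. Its CD103+ cDC arrays were higher than all others, by 0.41 ± 0.11 against CD14lo cDC (adjusted p = 0.013) and 0.41 ± 0.11 against CD14hi moDC (adjusted p = 0.0095). Without CD14lo cDC array 2 the former was 0.37 (adjusted p = 0.056), under quantile normalization it was 0.25 (adjusted p = 0.094), and the gene's other probe sets gave 0.22 and 0.20 for the latter, with neither called.

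Rab4a and Rab13 were the other called members of this group. Rab4a, a Rab of fast recycling, was dim and read 1.49, 2.69 and 1.92 in CD103+ cDC, 22.1, 17.5 and 2.81 in CD14lo cDC, 20.5, 10.8 and 3.66 in Ly6Chi moDC and 60.6, 124 and 33.2 in CD14hi moDC. Its 3 CD14hi moDC arrays were the highest of the 12, at 0.88 ± 0.22 over CD14lo cDC (adjusted p = 0.015). That call was lost without CD14lo cDC array 3 (0.75, adjusted p = 0.090) or CD14hi moDC array 2 (0.59, adjusted p = 0.063), and the one against Ly6Chi moDC (-0.93 ± 0.22, adjusted p = 0.0095) without Ly6Chi moDC array 3 (-0.84, adjusted p = 0.055). Rab13, known from epithelial junctions, read higher in CD103+ cDC than in CD14lo cDC (0.79 ± 0.23, adjusted p = 0.026), a call lost without CD103+ cDC array 2 or 3 or CD14lo cDC array 1 (0.64 to 0.79, adjusted p = 0.065 to 0.12). Rab4b, Rab11b, Rab14, Rab15, Rab25 and Rab35 were not called, and Rab25, an epithelial relative of Rab11a, read 9.06 to 73.9 over the 12 arrays.

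Late endosomes and lysosomes. Of 9 Rabs, 7 were called. The median range was 0.95 on the log2 scale, the value of the dim Rab34, against 0.44 over all genes and 0.61 over brighter ones. Median ranges were 0.46 for early endosomes and phagosomes, 0.53 for recycling endosomes and the plasma membrane and 0.40 for the endoplasmic reticulum and Golgi. They were 0.68 for regulated secretion and 0.56 for cilia, autophagy and other functions. Rab7b returns cargo from endosomes to the trans-Golgi network and is known to dampen TLR4 and TLR9 signalling. Its signals were 3829, 4857 and 3554 in CD103+ cDC, 893, 435 and 1011 in CD14lo cDC, 3595, 4127 and 3434 in Ly6Chi moDC and 4321, 4198 and 4346 in CD14hi moDC. The 3 CD14lo cDC arrays were far below the other 9. CD103+ cDC overlapped both moDC populations, and the Ly6Chi moDC arrays lay just below the CD14hi moDC arrays (-0.21 ± 0.22, adjusted p = 0.68). CD14lo cDC was lower by 5.52-fold than CD14hi moDC (2.46 ± 0.22, adjusted p = 1.4e-06), by 5.21-fold than CD103+ cDC and by 4.78-fold than Ly6Chi moDC. Both other probe sets of the gene also called these 3 differences in the same direction. The cDC mean was below the moDC mean (-1.17 ± 0.15), although the CD103+ cDC arrays overlapped those of both moDC populations; for CD103+ cDC against CD14hi moDC another probe set gave 0.69 (adjusted p = 0.0064) where this one gave -0.08. Rab7, the Rab of late endosome and lysosome fusion, read 6899, 7952 and 6795 in CD103+ cDC, 6517, 5928 and 6089.7 in CD14lo cDC, 7647, 7324 and 7022 in Ly6Chi moDC and 7083, 6948 and 6795 in CD14hi moDC. Its 3 CD14lo cDC arrays were also the lowest of the 12, but its range was 0.25 and it was not called (F test, adjusted p = 0.29).

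Rab39, also called Rab39a, is known to favour cross-presentation from DC phagosomes. It read 369, 310.4 and 348 in CD103+ cDC, 87.7, 113 and 83.7 in CD14lo cDC, 42.6, 57.0 and 42.6 in Ly6Chi moDC and 83.6, 90.7 and 45.6 in CD14hi moDC. The lowest CD103+ cDC array (310.4) lay far above the highest other array (113). CD103+ cDC were higher than CD14lo cDC (1.44 ± 0.22, adjusted p = 0.00019), CD14hi moDC (1.69 ± 0.22) and Ly6Chi moDC (2.01 ± 0.22), against signals near background. Its X-linked paralogue Rab39b read 370.0, 209 and 194 in CD103+ cDC, 68.4, 42.6 and 66.4 in CD14lo cDC, 22.6, 30.0 and 45.6 in Ly6Chi moDC and 102, 47.4 and 43.5 in CD14hi moDC. It too was higher on every CD103+ cDC array, by 1.46 ± 0.26, 1.42 ± 0.26 and 1.86 ± 0.26 in the same order (largest adjusted p = 0.00087).

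Rab29 and Rab34 moved otherwise. Rab29, a Rab of the trans-Golgi network and stressed lysosomes that binds the kinase LRRK2, read 641, 583 and 536 in CD103+ cDC, 999.5, 949.7 and 1107 in CD14lo cDC, 1227, 1243 and 1134 in Ly6Chi moDC and 782, 919 and 824 in CD14hi moDC. CD103+ cDC arrays were the lowest, below CD14lo cDC by -0.75 ± 0.13 and below Ly6Chi moDC by -0.98 ± 0.13 (adjusted p = 0.00083 and 2.5e-05). The fall against CD14hi moDC (-0.49 ± 0.13, adjusted p = 0.014) was lost without CD103+ cDC array 3 or CD14hi moDC array 2 (-0.43 and -0.42, adjusted p = 0.055 and 0.070) and after median centring (-0.37, adjusted p = 0.087). Rab34, which moves lysosomes and serves phagosome maturation, was dim and read 58.1, 71.7 and 183 in CD103+ cDC, 7.31, 57.8 and 19.1 in CD14lo cDC, 83.7, 107 and 95.6 in Ly6Chi moDC and 91.1, 86.1 and 98.8 in CD14hi moDC. Its rise in CD103+ cDC over CD14lo cDC (0.95 ± 0.29, adjusted p = 0.032) leaned on array 3: without that array it was 0.61 (adjusted p = 0.16), and without CD14lo cDC array 1 or 3 it was 0.75 and 0.89 (adjusted p = 0.15 and 0.11). The other probe set gave 0.38 (adjusted p = 0.35). The rise in Ly6Chi moDC over CD14lo cDC (0.95 ± 0.29, adjusted p = 0.037) was lost without any 1 of 5 arrays, at 0.75 to 1.00 (adjusted p = 0.069 to 0.18).

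Rab9, which returns mannose 6-phosphate receptors from late endosomes, was higher in CD103+ cDC than in both moDC populations (0.44 ± 0.13 and 0.64 ± 0.13, adjusted p = 0.021 and 0.0010). The former call was lost without CD103+ cDC array 1 or CD14hi moDC array 1 or 3 (0.37 to 0.41, adjusted p = 0.059 to 0.092). Rab12, which sends receptors to lysosomes, was higher in CD103+ cDC than in Ly6Chi moDC (0.70 ± 0.19, adjusted p = 0.0095), a call its other probe set did not make (0.74, adjusted p = 0.069). Rab9b was dim and not called.

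Endoplasmic reticulum and Golgi. Here 5 of 13 measured Rabs were called, and 3 of them, Rab43, Rab30 and Rab19, were higher in CD103+ cDC than elsewhere. Rab43, a Golgi Rab known to be needed for cross-presentation by the XCR1+ lineage to which lung CD103+ cDC belong, read 3319, 3766 and 4898 in CD103+ cDC, 2295, 2505 and 2201 in CD14lo cDC, 1142, 1044 and 1511 in Ly6Chi moDC and 1225, 1387 and 1393 in CD14hi moDC. The populations fell in steps: every CD103+ cDC array exceeded every CD14lo cDC array, which in turn exceeded every moDC array. CD103+ cDC were higher than CD14lo cDC by 1.68-fold (0.75 ± 0.16, adjusted p = 0.0033), than CD14hi moDC by 2.89-fold (1.53 ± 0.16, adjusted p = 1.9e-06) and than Ly6Chi moDC by 3.15-fold. CD14hi moDC were below CD14lo cDC (-0.78 ± 0.16, adjusted p = 0.0038), and the 2 moDC populations differed by -0.13 ± 0.16 (adjusted p = 0.75). One other probe set gave 0.52 for CD103+ cDC against CD14lo cDC (adjusted p = 0.060), and 2 others gave -0.45 and -0.43 for CD14hi moDC against CD14lo cDC (adjusted p = 0.16 and 0.093).

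Rab30, which keeps the Golgi intact and acts in autophagy of bacteria, had the widest range of all members (2.96). It read 478, 621 and 640.5 in CD103+ cDC, 142, 251 and 202 in CD14lo cDC, 29.1, 74.0 and 3.05 in Ly6Chi moDC and 68.6, 82.9 and 167 in CD14hi moDC. All CD103+ cDC arrays lay above all others, and the Ly6Chi moDC arrays overlapped only with CD14hi moDC. CD103+ cDC were higher than CD14lo cDC by 2.56-fold (1.36 ± 0.31, adjusted p = 0.0062), than CD14hi moDC (2.05 ± 0.31) and than Ly6Chi moDC (2.96 ± 0.31), whose signals were near or below background. Ly6Chi moDC were also below CD14lo cDC (-1.60 ± 0.31, adjusted p = 0.0018).

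Rab19, a Golgi Rab, read 156, 238 and 228 in CD103+ cDC, 129, 79.4 and 123 in CD14lo cDC, 100.0, 97.0 and 88.5 in Ly6Chi moDC and 63.5, 53.5 and 62.7 in CD14hi moDC. CD103+ cDC arrays were the highest, though array 1 came near CD14lo cDC array 1. The rise over CD14lo cDC (0.68 ± 0.22, adjusted p = 0.046) held only while CD103+ cDC array 1 was the array left out: without any 1 of the other 11 it was 0.53 to 0.77 (adjusted p = 0.053 to 0.18). The rises over CD14hi moDC (1.21 ± 0.22, adjusted p = 0.00063) and Ly6Chi moDC (0.81 ± 0.22, adjusted p = 0.01) kept their calls in each such fit.

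The remaining Golgi calls were Rab6b and Rab1b. Rab6b, a Rab of retrograde Golgi transport, read 328, 264 and 21.2 in CD103+ cDC, 296, 236 and 240.5 in CD14lo cDC, 100.2, 60.5 and 69.8 in Ly6Chi moDC and 302, 463 and 340.0 in CD14hi moDC. CD103+ cDC array 3 was far dimmer than the other arrays of its population, so CD103+ cDC overlapped every other group. Ly6Chi moDC were below CD14hi moDC (-1.72 ± 0.44, adjusted p = 0.018), a call lost without CD14hi moDC array 2 or Ly6Chi moDC array 2 or 3 (-1.56 to -1.68, adjusted p = 0.062 to 0.083). The gene's other probe sets gave -1.49, -1.74 and -1.41 for this pair, each called over all 12 arrays (largest adjusted p = 0.0042). Rab1b, which moves cargo from the endoplasmic reticulum to the Golgi, was lower in cDC (-0.35 ± 0.10, adjusted p = 0.015), and so was its paralogue Rab1a (-0.26 ± 0.08, adjusted p = 0.029), which the F test did not call. The Rab1a call was lost without any 1 of 6 arrays (-0.22 to -0.26, adjusted p = 0.054 to 0.084): CD103+ cDC array 2, CD14lo cDC array 2, CD14hi moDC array 2 or 3, or Ly6Chi moDC array 1 or 2. Rab6a was higher in Ly6Chi moDC than in CD14lo cDC (0.40 ± 0.12, adjusted p = 0.043), without an F test call, and that pair was lost without any array of either population or CD14hi moDC array 2 (0.35 to 0.45, adjusted p = 0.052 to 0.15). Rab2a, Rab2b, Rab18, Rab33a, Rab33b and Rab36 were not called by the F test.

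**Figure D3:**
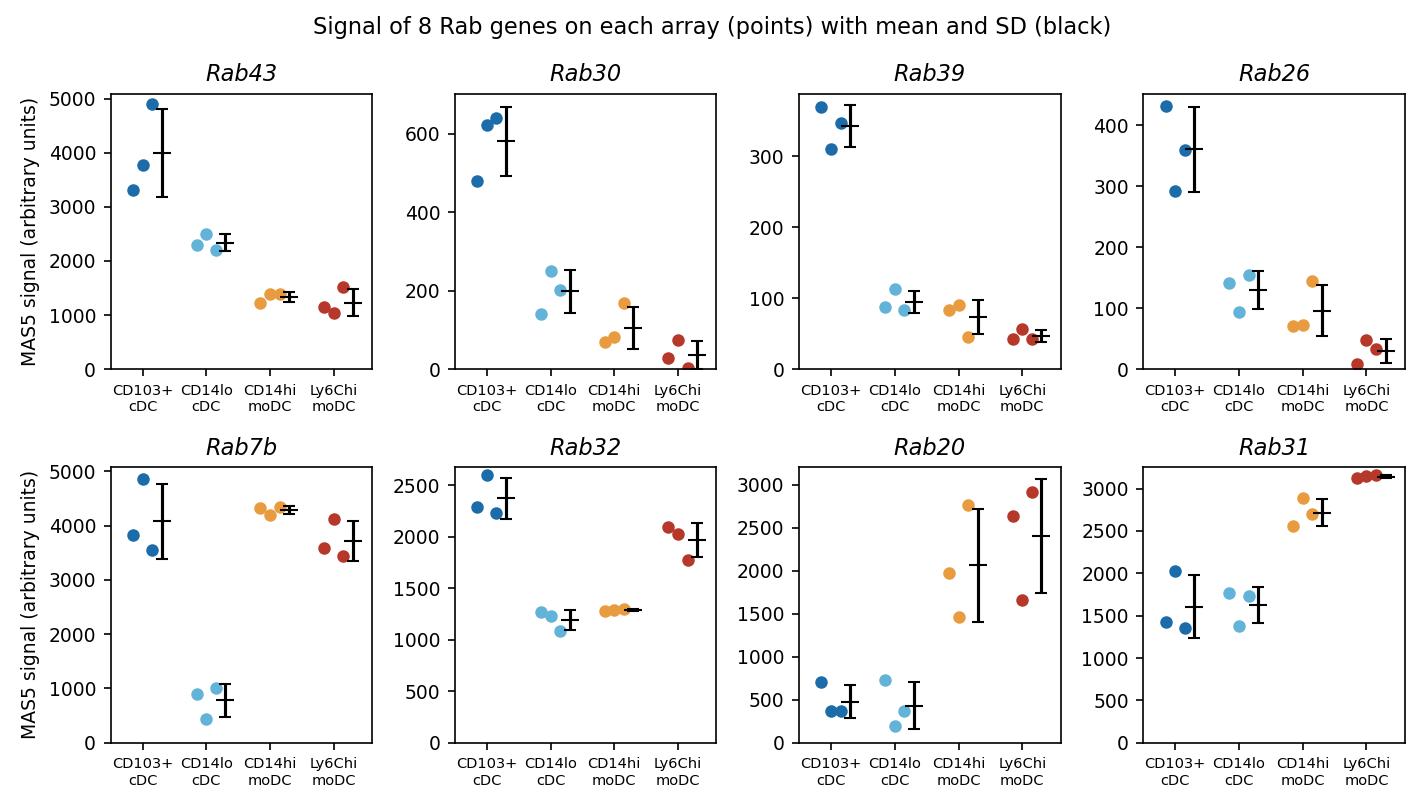
Points are the MAS5 signals (arbitrary units, linear axes from 0) of 8 Rab genes on each of the 3 arrays per population, with black bars for mean and SD. Rab43, Rab30, Rab39 and Rab26 have their 3 highest arrays in CD103+ cDC, Rab7b is low only in CD14lo cDC among the 4 populations, and Rab20 and Rab31 are higher on all 6 moDC arrays.

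Regulated secretion and lysosome-related organelles. Of 11 Rabs, 5 were called: Rab26, Rab32, Rab37, Rab38 and Rab44. Rab26, a Rab of secretory granules, read 431, 292 and 359 in CD103+ cDC, 141, 94.3 and 155 in CD14lo cDC, 7.92, 47.8 and 33.3 in Ly6Chi moDC and 70.7, 72.6 and 144 in CD14hi moDC. CD103+ cDC arrays were all above the others, and Ly6Chi moDC arrays were the lowest. CD103+ cDC were higher than CD14lo cDC by 2.28-fold (1.19 ± 0.27, adjusted p = 0.0054), than CD14hi moDC (1.52 ± 0.27) and than Ly6Chi moDC (2.38 ± 0.27), where signals were near or below background. The antisense RNA that fits the name pattern, Rab26os, did not share this, with means of 416 in CD103+ cDC, 467 in CD14lo cDC, 424 in Ly6Chi moDC and 399 in CD14hi moDC (F test, adjusted p = 0.87).

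Rab32 and Rab38 are paralogues that build melanosomes and other lysosome-related organelles, and Rab32 is known for restricting bacteria in macrophages. Rab32 read 2286, 2599 and 2228 in CD103+ cDC, 1271, 1226 and 1082 in CD14lo cDC, 2093, 2027 and 1777 in Ly6Chi moDC and 1283, 1289 and 1295 in CD14hi moDC. CD103+ cDC and Ly6Chi moDC formed an upper level and CD14lo cDC and CD14hi moDC a lower one, so the pattern crossed the cDC and moDC lineages (0.08 ± 0.09 between their means, adjusted p = 0.61). CD103+ cDC exceeded CD14lo cDC (0.96 ± 0.12, adjusted p = 2.9e-05) and CD14hi moDC (0.85 ± 0.12), and Ly6Chi moDC exceeded CD14hi moDC (0.59 ± 0.12, adjusted p = 0.0044). CD103+ cDC against Ly6Chi moDC gave 0.26 ± 0.12 (adjusted p = 0.13).

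Rab38, which was dim, ran the other way and read 2.70, 21.4 and 16.1 in CD103+ cDC, 74.5, 113 and 108 in CD14lo cDC, 62.9, 39.2 and 56.3 in Ly6Chi moDC and 25.8, 49.3 and 83.7 in CD14hi moDC. CD103+ cDC arrays were the lowest, and CD14lo cDC had the highest mean (-1.23 ± 0.23, adjusted p = 0.001). The falls against CD14hi moDC (-0.67 ± 0.23, adjusted p = 0.043) and Ly6Chi moDC (-0.70 ± 0.23, adjusted p = 0.027) were lost without any 1 of 6 and of 4 arrays. These were CD103+ cDC arrays 1 and 3 and Ly6Chi moDC arrays 1 and 3 for both, and CD14hi moDC arrays 2 and 3 for the former, with -0.46 to -0.71 and -0.57 to -0.74 left (adjusted p = 0.051 to 0.19 and 0.052 to 0.12). The other probe set gave -0.16 and -0.34, neither called, and quantile normalization (-0.63, adjusted p = 0.055) and median centring (-0.56, adjusted p = 0.098) ended the former call.

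Rab44 and Rab37 are Rabs of granule-bearing blood cells, and both were dim. Rab44 read 47.8, 16.7 and 6.47 in CD103+ cDC, 51.5, 59.2 and 73.3 in CD14lo cDC, 223, 227 and 86.4 in Ly6Chi moDC and 82.7, 13.7 and 38.3 in CD14hi moDC. Its 3 Ly6Chi moDC arrays were the highest. The neutrophil markers S100a8, S100a9 and Csf3r, but not Camp, also had their highest mean in that population. The part of those markers was not tested. The Rab44 rise over CD14hi moDC (1.26 ± 0.31, adjusted p = 0.015) was lost without CD14hi moDC array 2 (1.01, adjusted p = 0.091) or Ly6Chi moDC array 1 or 2 (1.10 and 1.09, adjusted p = 0.072 and 0.070). Rab37, a paralogue of Rab26, was lower in CD103+ cDC than in CD14lo cDC (-0.82 ± 0.22, adjusted p = 0.017). That call was lost without CD103+ cDC array 2 or CD14lo cDC array 2 or 3 (-0.70 to -0.79, adjusted p = 0.057 to 0.075).

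Rab27a and the Rab3 forms, named in the DC literature, were not called by the F test. Rab27a, which keeps the DC phagosome from acidifying, read 146, 412 and 337 in CD103+ cDC, 388, 393 and 208 in CD14lo cDC, 395, 353 and 349 in Ly6Chi moDC and 253, 191 and 228 in CD14hi moDC. The CD14hi moDC arrays lay below the Ly6Chi moDC arrays, and all other pairs of populations overlapped (F test, adjusted p = 0.39). Rab3b and Rab3c, reported to hold MHC class I near phagosomes, were dim, with at most 40.7 and 65.7 on any array and no call. Rab3d, a granule Rab, differed between CD103+ cDC and Ly6Chi moDC (-0.68 ± 0.20, adjusted p = 0.018) without an F test call. Its Ly6Chi moDC arrays were the highest, in the population where S100a8, S100a9 and Csf3r, but not Camp, also had their highest means. Any part of those markers in the Rab3d values was not tested. The Rab3d pair was lost without CD103+ cDC array 2 or 3 or Ly6Chi moDC array 3 (-0.50 to -0.63, adjusted p = 0.061 to 0.089).

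Of 6 Rabs placed with cilia, autophagy and other functions, Rab24 and Rab23 were called. Rab24, a Rab of autophagosome clearance, read 434, 424 and 488 in CD103+ cDC, 1287, 945 and 1066 in CD14lo cDC, 1054, 1139 and 1004 in Ly6Chi moDC and 811, 831 and 826 in CD14hi moDC. The highest CD103+ cDC array (488) lay below the lowest other array (811). CD103+ cDC were lower by 2.29-fold than CD14lo cDC (-1.20 ± 0.14, adjusted p = 1.4e-05), by 1.75-fold than CD14hi moDC (adjusted p = 0.00046) and by 2.24-fold than Ly6Chi moDC. Rab23, a negative regulator of hedgehog signalling, ranged over 0.79 with no called pair. Rab28, Rab40b, Rab40c and Rab42 were not called by the F test, and Rab40c, a ubiquitin ligase component, was lower in cDC (-0.41 ± 0.14, adjusted p = 0.048), a call lost without any 1 of 9 arrays, all but CD103+ cDC array 2, CD14lo cDC array 2 and Ly6Chi moDC array 2 (-0.33 to -0.44, adjusted p = 0.054 to 0.13).

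The comparison of conventional with monocyte-derived DC asked which Rabs follow the lineage. Of the 22 called members, 6 had all 6 cDC arrays on one side of all 6 moDC arrays. The same count was not made over all genes, so whether 6 is few or many is not known. Rab43 (1.22) and Rab8a (0.52) were higher in both cDC populations, and Rab20 (-2.24), Rab31 (-0.85), Rab1b (-0.35) and Rab1a (-0.26) were higher in both moDC populations. For the others, such as Rab30 (1.83), Rab26 (1.35), Rab39 (1.13) and Rab7b (-1.17), the arrays of the 2 sides overlapped.

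The 2 CD11bhi CD14-sorted populations, CD14hi moDC and CD14lo cDC, differed in 6 members. Rab7b, Rab20, Rab4a and Rab31 were higher in CD14hi moDC, and Rab43 and Rab8a in CD14lo cDC (-0.51 ± 0.14, adjusted p = 0.026). The Rab8a call was lost without CD14hi moDC array 1 or 2 or CD14lo cDC array 1 (-0.43 to -0.48, adjusted p = 0.092 to 0.12). Between the moDC populations, Rab44, Rab32 and Rab29 (0.49 ± 0.13, adjusted p = 0.026) were higher in Ly6Chi moDC and Rab6b, Rab4a and Rab8b in CD14hi moDC. The Rab29 call was lost without CD14hi moDC array 1 or 3 or Ly6Chi moDC array 1 or 2 (0.44 to 0.48, adjusted p = 0.080 to 0.10).

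Close paralogues could share the direction of their differences or not. Rab39 and Rab39b had the same highest and lowest population, as did Rab11a, Rab11b and Rab25. Rab7 and Rab7b, Rab8a and Rab8b, Rab9 and Rab9b, and Rab2a and Rab2b shared the lowest one, and Rab1a and Rab1b, and Rab33a and Rab33b, the highest one. Others were opposed. Rab22a and Rab31, and Rab4a and Rab4b, had their highest and lowest populations exchanged. Rab6a was highest and Rab6b lowest in Ly6Chi moDC, and Rab40b highest and Rab40c lowest in CD103+ cDC. Many of these genes were uncalled, with ranges down to 0.07 for Rab33a and 0.19 for Rab9b, and the order of their means was not tested. Rab7b, Rab6b, Rab4a and Rab31 were called by the F test while Rab7, Rab6a, Rab4b and Rab22a were not, with ranges of 2.46, 1.72, 1.17 and 0.97 against 0.25, 0.40, 0.26 and 0.42. Rab32 was highest and Rab38 lowest in CD103+ cDC, and the same held for Rab26 and Rab37. The F test called no member of the Rab2, Rab3, Rab5, Rab27, Rab33 and Rab40 groups. Differences between paralogues in range were not tested.

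**Figure D4:**
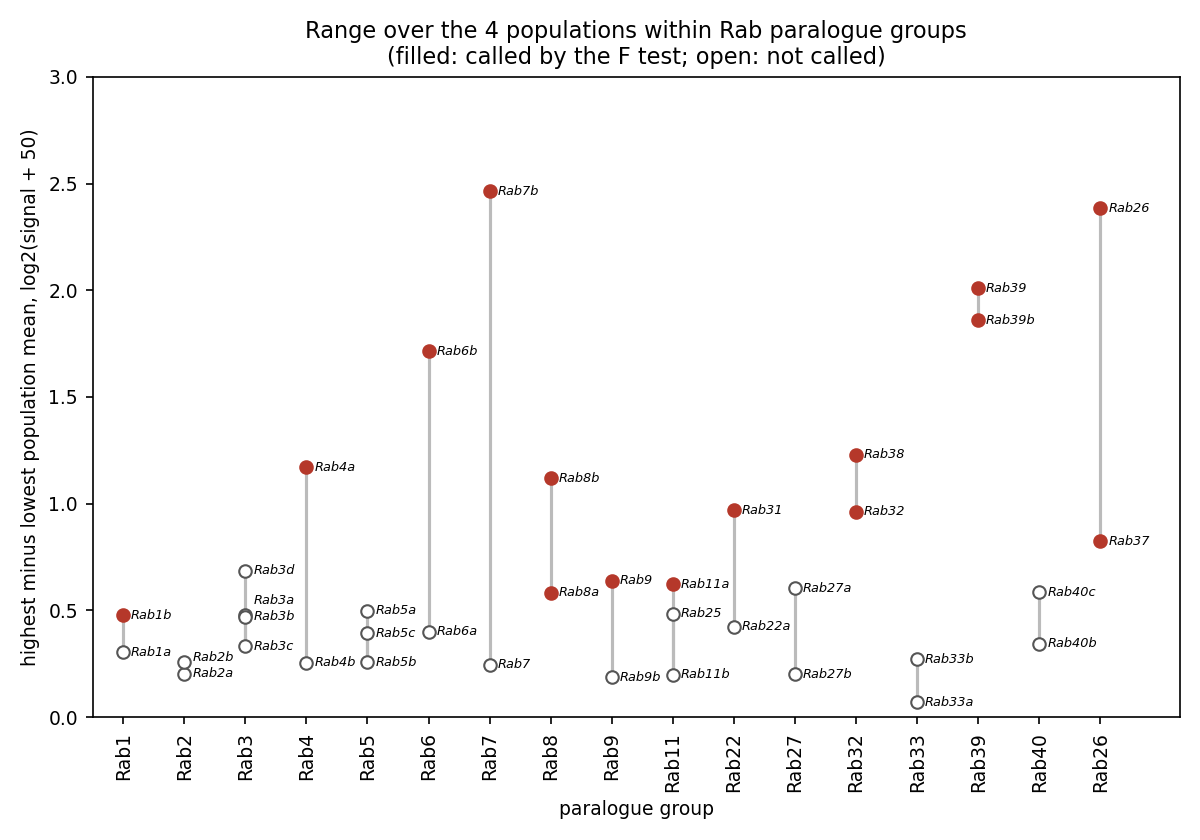
Each column is a group of Rab paralogues, the vertical axis is the range of the 4 population means in log2(signal + 50), and filled circles are genes called by the F test. Rab7b (2.46) and Rab7 (0.25) lie far apart in their column, while Rab39 (2.01) and Rab39b (1.86) lie close together.

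The 31 members not called by the F test had ranges of 0.07 to 0.68. Of these, 21 were brighter than the line at 92.2, among them the housekeeping Rabs Rab1a, Rab2a, Rab5a, Rab6a, Rab7, Rab11b and Rab14, and a missed threshold does not show that they were equal. In all, 15 members were dim, 5 of which were called (Rab34, Rab37, Rab38, Rab44 and Rab4a). Among the called members 18 had 25 other probe sets: 84 of 85 called differences kept their sign on these and 59 were called again, none in the opposite direction.

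Genes that load, unload and read Rabs were examined as a separate list. Of a list of 109 regulators and effectors, 103 were on the arrays and 53 were called by the F test, in 4 classes: 18 of 27 exchange factors, 17 of 35 activating proteins, 16 of 34 effectors and 2 of 7 genes of prenylation and GDP dissociation. The test called 30.8% of all genes and 46.5% of brighter ones. In cDC against moDC, 10 exchange factors were higher and 5 lower, as were 10 and 7 activating proteins, 9 and 6 effectors, and 1 and 1 of the prenylation class, where 12.1% of all genes were higher and 12.3% lower. The class medians were 0.11, 0.07, 0.07 and -0.16 on the log2 scale, against 0.00 over all genes.

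Among exchange factors, Rab3il1, which acts on Rab8, and Rin2, which acts on Rab5, were the furthest below in cDC. Rab3il1 had 122 ± 22.7 in CD103+ cDC, 426 ± 31.6 in CD14lo cDC, 1284 ± 18.4 in Ly6Chi moDC and 1226 ± 201 in CD14hi moDC (SD, n = 3), a difference of -2.19 ± 0.12, adjusted p = 5.2e-10 by limma. Rin2 fell with it (-1.94 ± 0.12), as did Dennd1a, an exchange factor of Rab35 (-1.19 ± 0.17). Dennd3, which acts on Rab12, was higher in cDC (1.36 ± 0.13, adjusted p = 4.9e-07), as were Rin3, which acts on Rab5 (0.82 ± 0.10), and Dennd2d (0.75 ± 0.15). All arrays of both sides were apart for these except Dennd2d.

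Activating proteins had the largest rises in cDC. Tbc1d10c was higher (2.75 ± 0.19, adjusted p = 1.1e-08) with all arrays apart and moDC signals near background. Tbc1d4, which acts on Rab8, Rab10 and Rab14, was 5.73-fold and Rabgap1l 5.08-fold higher, both overlapping between the sides, with means falling from CD103+ cDC over CD14lo cDC and CD14hi moDC to Ly6Chi moDC. Rabgap1l read 4149 ± 582, 1418 ± 291, 1219 ± 96.8 and 138 ± 42.4 in that order (SD, n = 3). Tbc1d2b (-1.84 ± 0.15), Evi5, which acts on Rab11 (-1.43 ± 0.10), and Tbc1d24 (-1.10 ± 0.20) were lower in cDC, with all arrays apart.

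Effectors split within the Rab11 family. Rab11fip5 was 4.84-fold lower in cDC (-2.28 ± 0.11, adjusted p = 2.0e-10), whereas Rab11fip4 was higher (0.92 ± 0.15), both with arrays apart. Mical1 (1.37 ± 0.12) and Micall1 (0.90 ± 0.10), which shape recycling tubules and actin, were higher, and the Rab8 and Rab10 partners Rilpl1 (-1.58 ± 0.13) and Rilpl2 (-0.77 ± 0.16) were lower. Of the prenylation class, the escort protein gene Chml was higher (0.70 ± 0.16, adjusted p = 0.0029). Rabggta, a subunit of the geranylgeranyl transferase, was lower (-0.48 ± 0.14, adjusted p = 0.017), a call lost without CD14hi moDC array 2 (-0.42, adjusted p = 0.051). Hps4 and Ankrd27, picked after their values were seen because they act on Rab32 and Rab38, were both highest in CD103+ cDC. Hps4, part of their exchange factor, exceeded CD14lo cDC by 1.19 ± 0.17, adjusted p = 0.00012, and Ankrd27, their effector, by 0.43 ± 0.13, adjusted p = 0.031.

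The F test called 30.8% of all genes and 46.5% of brighter genes. Of the 13 genes that fit the name but encode no Rab GTPase, it called 6. Besides Rab3il1, Rab11fip4 and Rab11fip5 these were Rab11fip1, Rab3ip and Rab5if. Rab11fip1, an effector of Rab11, had its highest mean in CD103+ cDC (2912 ± 578 against 1515 ± 255 in CD14lo cDC, 1225 ± 414 in Ly6Chi moDC and 1449 ± 362 in CD14hi moDC, SD, n = 3). Rab3ip, an exchange factor of Rab8, was lowest in CD14hi moDC (182 ± 27.4), and Rab5if highest in Ly6Chi moDC (2603 ± 34.7).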

How the data were processed

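Affymetrix mouse arrays measured RNA of 12 sorted samples, 3 for each of 4 populations, and 50 ng of RNA per sample was amplified with WT-Ovation Pico, per the labels' protocols. The deposited values are linear MAS5 intensity values, per the submitters' processing notes, and share a 2% trimmed mean of 500.003 on all arrays. Of 45101 probe sets, 64 controls were left out, and 34945 had 1 gene symbol, 932 several and 9160 none; only probe sets with 1 symbol were named. The probe set with the highest mean stood for each of 18193 genes.

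Values were taken as log2(signal + 50) and fitted in limma 3.58.1 (R 4.3.3, lmFit, eBayes with an intensity trend) over all 12 arrays and all 18193 genes without a filter. A moderated F test and 7 contrasts were adjusted by Benjamini-Hochberg, with calls at adjusted p under 0.05. Tests were two-sided, and p-values measure only the spread between these samples. The procedure was tested on simulated data, where the share of false calls was above the nominal 0.05. Values per array were given, by rule, for the 20 Rab GTPases with the largest range among those called by the F test, every Rab called in 1 direction against all 3 other populations, and Rabs known in antigen presentation, 27 in all, and for up to 3 called regulators a class with the largest cDC against moDC difference in each direction. Other members were named after their values were seen. The members and all lists were chosen with earlier results of these data known. Alternatives were quantile normalization, median centring, pseudocounts of 10 and 200, 2 filters on dim genes, other probe sets and their mean, no trend, only the arrays compared, a replicate block, a 2-fold requirement and leaving out each array.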

Additional observations from a re-analysis of the deposited data

How the results depend on the processing

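Of 2199 recomputations of the 90 called differences of the named members, 2013 kept their direction and call, 185 lost the call (51 of them under the 2-fold requirement) and 1 reversed. For the 20 named regulators 451 of 460 kept theirs and 9 lost the call. Other probe sets gave the reversals: Rab8b, CD103+ cDC against CD14lo cDC, -0.093 (adjusted p = 0.82), and for CD103+ cDC against CD14hi moDC, uncalled as reported, Rab34 at -0.82 (adjusted p = 0.018) and Rab7b at 0.69 (adjusted p = 0.0064). The cause was not tested. All adjusted p-values are from limma.

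With the 2-fold requirement the F test counted 15 members and 32 regulators and effectors; higher and lower counts were 4 and 2 for cDC against moDC, 2 and 0 for CD14hi moDC against CD14lo cDC, 5 and 2 for CD103+ cDC against CD14lo cDC, 1 and 1 for Ly6Chi moDC against CD14hi moDC, 6 and 2 for CD103+ cDC against CD14hi moDC, 7 and 3 for CD103+ cDC against Ly6Chi moDC, 2 and 2 for Ly6Chi moDC against CD14lo cDC, and 4 and 0 for CD103+ cDC against each other population. Without CD103+ cDC arrays 1 and 3, a setting chosen after seeing the data, they were 7 and 2 against CD14lo cDC, 8 and 3 against CD14hi moDC, 6 lower against Ly6Chi moDC, 3 and 1 against each, and 5 lower for Ly6Chi moDC against CD14hi moDC. The mean of probe sets gave 7 and 5 for CD14hi moDC against CD14lo cDC and 6 and 10 for Ly6Chi moDC against CD14hi moDC. For the latter, each filter gave 7 lower, pseudocount 10 and no trend 5 lower each, and median centring 10 higher. Each filter gave 2 lower for CD103+ cDC against CD14lo cDC, with fewer genes tested, and median centring left 1 lower in CD103+ cDC than in each other population. Settings applied to the counts against each other population were added after seeing the data. The count of regulators was not run on only the arrays compared.

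Leaving out 1 array gave 22 to 27 members by the F test and 46 to 53 regulators and effectors. Higher counts ran from 11 to 13 and lower from 7 to 10 for cDC against moDC, 3 to 5 and 1 to 2 for CD14hi moDC against CD14lo cDC, 11 to 15 and 3 to 4 for CD103+ cDC against CD14lo cDC, 1 to 4 and 1 to 5 for Ly6Chi moDC against CD14hi moDC, 11 to 15 and 4 to 7 for CD103+ cDC against CD14hi moDC, 14 to 15 and 5 to 10 for CD103+ cDC against Ly6Chi moDC, 4 to 8 and 5 to 7 for Ly6Chi moDC against CD14lo cDC, and 8 to 10 and 1 to 3 for CD103+ cDC against each. The lower count against Ly6Chi moDC was 6, 5 and 6 without CD103+ cDC array 1, CD103+ cDC array 3 and Ly6Chi moDC array 3, and the lower count against each was 1 without CD103+ cDC array 3 or CD14hi moDC array 2. In Ly6Chi moDC against CD14hi moDC, Ly6Chi moDC arrays 1 and 2 each took the higher count to 1 and array 3 the lower count to 1, and without CD103+ cDC array 2 or CD14hi moDC array 1 the latter was 5. In CD14hi moDC against CD14lo cDC the lower count was 1 without CD14lo cDC array 1 or CD14hi moDC array 1 or 2.

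The replicate numbers were not taken to pair the samples, because only 8 of 18 same-numbered pairs had a correlation of deviations over 0.1 (range -0.11 to 0.25). Of 12 arrays, 8 correlated best with their own number, a hint of pairing from the data and not from the design. With the replicate number as a block the F test called 25 members and 52 regulators and effectors, 9 members were higher and 3 lower in CD103+ cDC than in each other population, and Rab19 for CD103+ cDC against CD14lo cDC lost its call (0.68, adjusted p = 0.062). Higher and lower counts with the block were 12 and 9 for cDC against moDC, 4 and 2 for CD14hi moDC against CD14lo cDC, 13 and 4, 14 and 6, and 15 and 9 for CD103+ cDC against CD14lo cDC, CD14hi moDC and Ly6Chi moDC, 3 and 4 for Ly6Chi moDC against CD14hi moDC and 6 and 7 for Ly6Chi moDC against CD14lo cDC.

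With 3 arrays a population, a missed threshold bounds no difference, and dim members (Rab4a, Rab34, Rab37, Rab38 and Rab44) sit near background, where the added 50 shrinks differences. Signals of different probe sets are not comparable, so no Rab was ranked against another by level.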
